A study of Rattus norvegicus with 287 samples.

Results

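Leptin (Lep), its receptor (Lepr), the transcription factor Stat3 and the feedback inhibitor Socs3 were followed through 8 tissues of rats that had received pulsed focused ultrasound (pFUS) or a sham procedure. The members were taken by gene symbol from the deposited gene table, and each symbol matched 1 of its 32623 genes, so that the set is 4 genes of 32623. Their identifiers were ENSRNOG00000045797 for Lep, ENSRNOG00000023664 for Lepr, ENSRNOG00000019742 for Stat3 and ENSRNOG00000002946 for Socs3. Lepr was also read from the deposited isoform table, which listed 6 Lepr transcripts and 1 transcript each for Lep, Socs3 and Stat3.

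Leptin is a hormone that fat cells release in proportion to the fat they store, and it acts on neurons of the hypothalamus to lower food intake. The long form of its receptor carries the kinase JAK2, which phosphorylates STAT3, and STAT3 then enters the nucleus and switches on target genes that include Socs3. SOCS3 binds the receptor complex and shuts the signal down. STAT3 and SOCS3 also serve interleukin-6 and related cytokines that signal through gp130, above all in liver, so neither gene reads leptin alone. RNA levels of the members do not measure phosphorylated STAT3.

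The series held RNA libraries of 8 tissues in 70 groups. The Obese ZDF rats (150 libraries, all male) carry the fa mutation, a missense change in the extracellular part of the leptin receptor that leaves its messenger RNA in place, and the Lean Zucker rats (54 libraries, all male) served as their lean counterpart. DIO-stz rats (68 libraries, both sexes) and DIO Diet Resistant rats (15 libraries, all female and all given pFUS) made up the rest, and the labels do not spell out the name DIO-stz. The pFUS was given at 1.1 MHz for 3 minutes to the porta hepatis, the entry of vessels and nerves into the liver. Controls had a sham procedure with no energy, and all rats were under isoflurane. Obese and lean rats had a control and a pFUS group at 7 weeks, with 5 rats in most groups, and obese and lean groups therefore differ in every locus at which these lines differ, not in the receptor alone. Obese rats also had 3-day groups (control, pFUS in the morning at settings the labels call x1 and x10) and 4-week groups (AM x10, AM&PM x1 and AM&PM x10, with no control), each of 4 rats and in liver, adipose and muscle only. Ages were not given in the labels. Replicates were different rats, and tissues of the same rat are not independent of each other.

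The 300 bases around the Lep start site are shown because Lep was the member with the sharpest tissue pattern. The window is from RefSeq on the GRCr8 build, chr4:58626288-58626587, plus strand, and holds 250 bases before the start and 50 after it. Capitals mark TTGCGCAA, the palindrome bound by C/EBP factors, at position -69 from the start, and the TATA element TATAA at -45.
Lep: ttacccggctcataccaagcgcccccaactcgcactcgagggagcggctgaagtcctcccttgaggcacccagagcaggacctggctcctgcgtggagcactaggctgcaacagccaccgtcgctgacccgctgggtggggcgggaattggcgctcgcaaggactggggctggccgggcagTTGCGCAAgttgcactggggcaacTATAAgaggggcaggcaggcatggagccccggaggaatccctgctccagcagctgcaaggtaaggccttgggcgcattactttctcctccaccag
Searched on both strands, TTGCGCAA was in 57 of 33469 such windows of the rat annotation (0.170%) and TATAA in 8777 (26.2%). The STAT motif TTCNNNGAA was in 2970 windows (8.87%) and not in that of Lep. The windows of Lepr, Socs3 and Stat3 held none of these 3 motifs, although all 4 members had a window. A match or its absence describes these letters only.

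Library totals ran from 2380545 to 43088790 counts with a median of 12849617, and members are given as CPM, the count scaled to a common library total, which is not corrected for transcript length and so is compared between samples and never between genes. Of 48 libraries labelled adipose, 43 had the fat-cell hormone Adipoq above 100 CPM and were used. The 5 others (obese pFUS rat 6, lean control rat 12 and lean pFUS rats 17, 18 and 19) had Lep at 10.8, 3.27, 0, 1.70 and 0 CPM. Among those used, lean control rat 11 and lean pFUS rat 16 held kidney markers at 5455 and 4387 CPM, and the brown-fat gene Ucp1 was above 100 CPM in obese control rats 4 and 5, obese pFUS rat 9 and 3-day x10 rat 37. Skeletal muscle markers reached 14120 CPM in the 7-week obese pFUS adipose libraries used (median 5.93). They reached 2485.5 CPM in the lean control ones (median 36.2). The series text calls the brain samples hypothalamus, and in 16 of 31 of them the hypothalamic peptide genes Pmch, Hcrt, Avp and Oxt summed to at least 50 CPM, with a range of 0.109 to 1221. Muscle libraries came in kinds: RNAs without a poly(A) tail made up 0.00597 to 0.0297% of the counts in the 7-week obese muscles and 4.03 to 9.30% in the lean ones, so library kind and genotype cannot be told apart there. The 7-week livers were alike in this respect, with 0.00881 to 0.0144% in obese and 0.00727 to 0.0151% in lean controls. The 3-day and 4-week obese livers had 3.94 to 8.42%, so library kind and time cannot be told apart in liver.

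Lep, the ligand, was a fat transcript. In the 43 adipose libraries it ran from 223 to 5093 CPM with a median of 2803. In muscle the median was 6.36 CPM (0 to 219), in intestine 2.14 (0 to 21.4), in kidney 1.47 (0 to 30.8) and in pancreas 0.366 (0 to 11.4). Liver gave 20 Lep counts in 2 of 55 libraries, blood 1 count in 31 libraries and brain 3 counts in 3 of 31. Adipose thus lay above every muscle library, whereas muscle, intestine, kidney and pancreas overlapped.

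**Figure D1:**
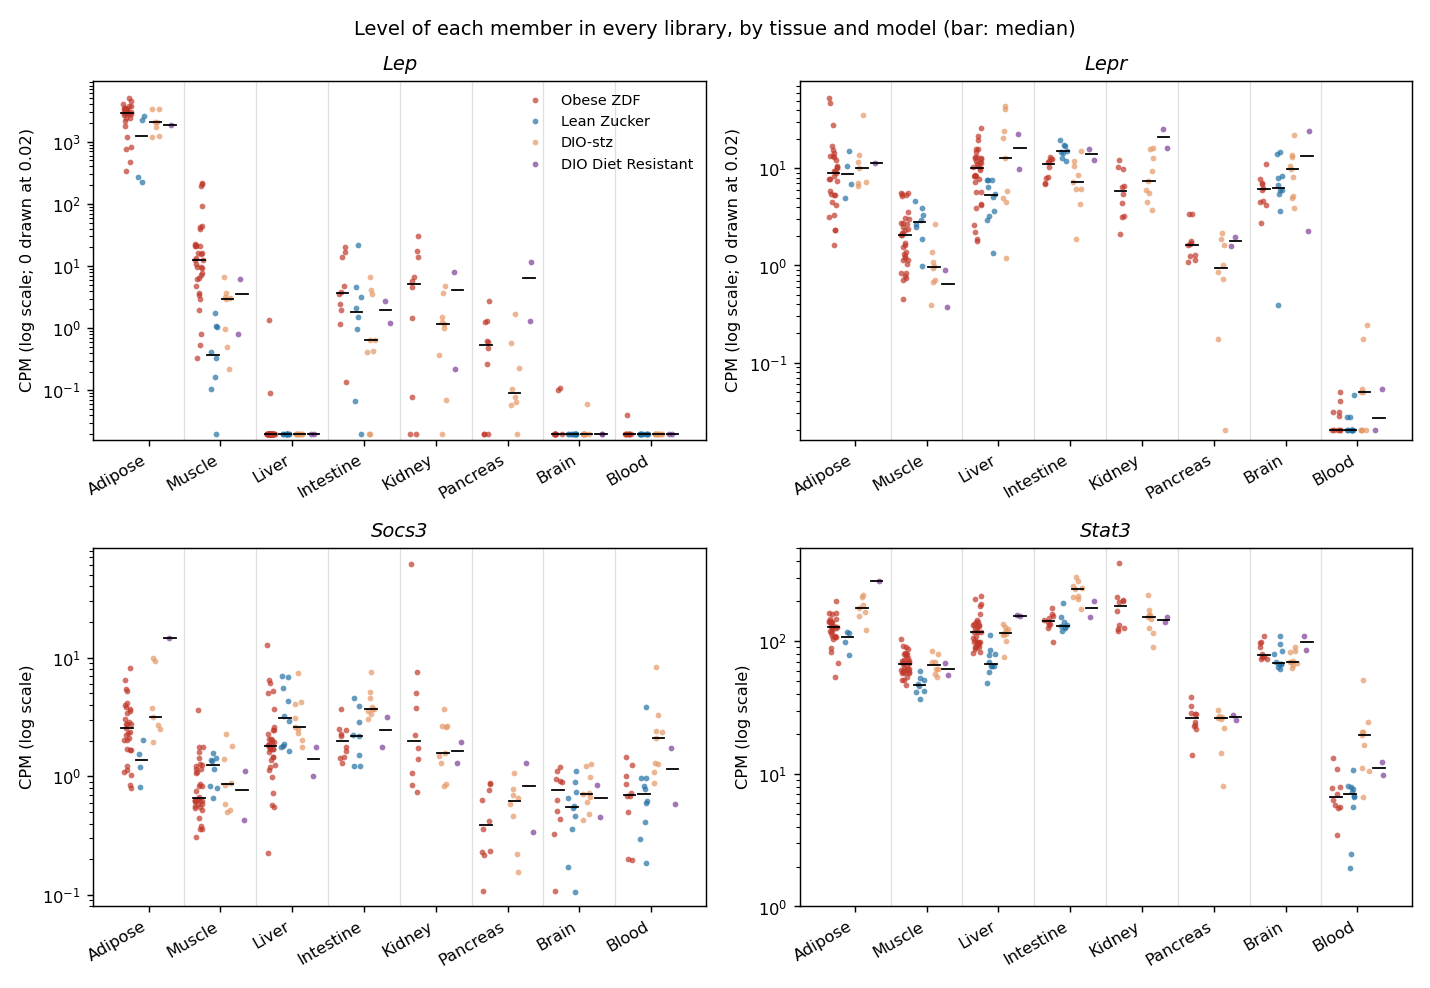
Level of each member in every library, by tissue and rat model (CPM, log axis, bar at the median, libraries with 0 counts of Lep or Lepr drawn at 0.02). Lep in adipose (223 to 5093 CPM) lies above every library of the other tissues, while the ranges of Lepr, Socs3 and Stat3 overlap across most tissues and Lepr is near 0 in blood.

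Over the 70 group means, the genes with the pattern most like Lep were the fat-cell genes Plin1 (Pearson r of log2 levels 0.984), Adipoq (0.984) and Trarg1 (0.979), followed by Tpsab1 (0.977) and Retn (0.965), out of 14176 genes ranked. Groups from the same tissue and the same rats share that r, and it is a description. Within the 43 adipose libraries the most alike were Npr3 (0.939), Tspan17 (0.936) and Akr1b1 (0.910).

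Adipose Lep of obese and lean controls overlapped widely. Obese control rats 1, 2, 4 and 5 had 2852, 2396, 465 and 335 CPM (1512 ± 1298, SD, n = 4). Lean control rats 11, 13 and 14 had 270.0, 2235 and 2571 CPM (1692 ± 1243, n = 3). The low values in each group were those of the libraries with Ucp1 (obese rats 4 and 5) and with kidney markers (lean rat 11). The log2 difference was -0.01 ± 0.78 (SE, edgeR quasi-likelihood test, adjusted p = 0.999), and its sign changed with the libraries left out. In this comparison 0.0147% of the genes tested in adipose were called at an adjusted p under 0.05. Per Adipoq count, adipose Lep was at -0.96 ± 0.28 (log2 ratio, SD) in the obese and -1.04 ± 0.10 in the lean controls, a difference of 0.08 (exact permutation test, two-sided, p = 0.657). With the fat-cell genes Plin1, Cidec or Cfd in place of Adipoq it was -1.04, 0.47 and -0.07 (exact permutation p = 0.371, 0.0571 and 0.857). Only with Cidec did the groups not overlap, and size and sign depended on the gene used.

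Muscle samples differed in Lep between obese and lean controls. The obese muscles (rats 1 to 5) had 15.6, 21.9, 92.1, 2.91 and 194 CPM (65.2 ± 79.8, n = 5). The lean muscles (rats 11 to 14) had 1.03, 0.327, 1.09 and 1.78 CPM (1.06 ± 0.595, n = 4). Every obese muscle was above every lean one, and the obese values spread over more than an order of magnitude. The log2 difference was 5.96 ± 1.22 (adjusted p = 0.000931), in a tissue where 51.9% of the genes tested were called and where the library kinds were completely separated. In bulk tissue, a change in the number of cells of a type and a change in RNA per cell cannot be told apart.

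Adipoq was higher in the obese than in the lean muscles apart from obese rat 4, which lay in the lean range. Adipoq was at 27.8, 26.9, 58.8, 3.72 and 83.6 CPM in the obese muscles and at 7.47, 3.10, 5.93 and 7.13 CPM in the lean ones. The 10 fat-cell markers, all detected, summed to 1862 to 2235 CPM against 1197 to 1435 CPM. In the 3-day obese control muscles, which like the lean ones had over 1% of RNAs without poly(A), the sum was 1065 to 1451 CPM. Plin4 and Gpd1 weigh heavily in this sum where Adipoq is low. In muscle of 4-week AM&PM x1 rat 21 they were at 381 and 676 CPM beside Adipoq at 1.16 CPM. Lep was also high relative to Adipoq. Its log2 ratio to Adipoq was 0.08 ± 0.83 in the obese and -2.56 ± 0.49 in the lean controls, with no overlap. The difference of 2.64 had p = 0.00794, the smallest that an exact two-sided permutation over 126 arrangements can give. It missed the threshold after adjustment over the 7 comparisons of the Lep to Adipoq ratio (adjusted p = 0.0556). This adjustment did not cover the ratios to other genes that were also computed. With the fat-droplet proteins Plin1 or Cidec in place of Adipoq the difference was 2.62 and 2.73, and with the fat-cell protease Cfd 3.12 (exact permutation p = 0.0556). These ratios were added after the levels had been seen.

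Obese muscles of other groups also had higher ratios than lean muscles of the same library kind. In muscle libraries with 1% or more of counts from RNAs without poly(A), the 24 obese libraries of the 3-day and 4-week groups had log2 ratios of Lep to Adipoq from -1.69 to 3.91 (median -0.73) and the 8 lean libraries from -5.88 to -1.97 (median -2.86), with no overlap. Lep itself was at 0.331 to 219 CPM (median 9.60) against 0 to 1.78 CPM (median 0.374), and these ranges overlapped. Below 1%, the 10 obese libraries at 7 weeks had ratios from -0.83 to 1.21 and the 8 DIO-stz libraries from -3.98 to -1.55. These groups differ in time and cohort, and no test was made between them. In adipose the controls stood at -0.44 ± 0.30 in the 3-day obese group (n = 4) and -2.00 ± 0.36 in DIO-stz (n = 4). The adipose libraries of DIO-stz and diet-resistant rats had 0.0170 to 0.0516% of such RNAs and those of obese and lean rats 3.64 to 20.6%, so that library kind cannot be told apart from model there. In intestine the ratio was -1.19 against -2.23 in obese and lean controls (exact permutation p = 0.135).

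**Figure D2:**
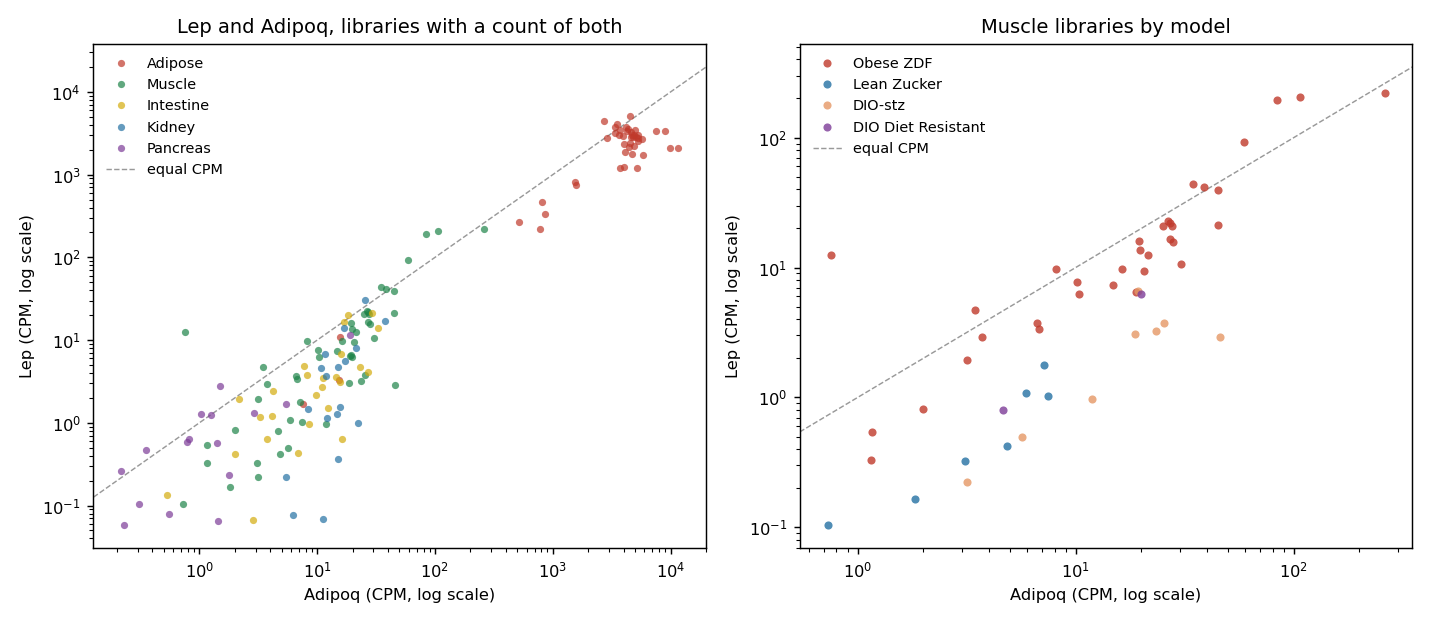
Lep against Adipoq in each library that had a count of both (CPM, log axes, dashed line at equal CPM), by tissue on the left and in muscle by rat model on the right. Lep follows Adipoq across tissues, and in muscle the obese libraries lie nearer to or above the line than the lean libraries, whose log2 ratios in the control group average -2.56.

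Lepr, the receptor, was spread over many tissues. Its median was 11.8 CPM in intestine (1.86 to 19.6), 9.37 in adipose (1.62 to 53.6), 8.36 in liver (1.18 to 44.5), 6.74 in brain (0.390 to 24.4) and 6.59 in kidney (2.13 to 25.5). It was low in muscle (median 1.79, 0.372 to 5.62) and pancreas (1.60, 0 to 3.42), and blood gave 20 Lepr counts in all 31 libraries. In the 7-week obese controls intestine had the highest mean at 12.4 ± 0.618 CPM, above every brain library, while the highest kidney (12.3 CPM) lay inside its range. Brain (7.13), kidney (6.85), adipose (6.03) and liver (4.54) followed and overlapped. In the 3-day obese controls, which had 3 tissues, liver Lepr was 13.6 ± 5.73 CPM. These livers were of another library kind than those at 7 weeks. Obese livers with under 1% of RNAs without poly(A) had a Lepr median of 4.08 CPM, and those with 1% or more 11.8 CPM. In the lean controls the order began with intestine (16.3), adipose (7.49) and brain (7.04), and in DIO-stz with liver (28.9 ± 17.7), adipose (16.8) and intestine (10.4).

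The messenger RNA of the mutated receptor was present at levels that overlapped those of the lean rats in each tissue tested. Lepr was lower in obese than in lean controls in 5 of 5 tissues by its fitted difference, and 1 of the 5 differences passed the test. That 1 was in muscle, where 51.9% of the genes tested were called and library kind and genotype cannot be told apart. In liver, adipose and brain the difference was smaller than its SE. In brain the mean CPM was not lower in the obese rats (7.13 against 7.04). In muscle the obese rats had 0.831, 1.57, 0.840, 1.13 and 0.704 CPM (1.01 ± 0.346) and the lean rats 4.60, 0.980, 2.47 and 1.89 CPM (2.48 ± 1.54). Lean rat 11 was the highest and lean rat 12 lay within the obese range. Lepr differed by -1.09 ± 0.38 (adjusted p = 0.0235), and it missed the threshold without lean rat 11 (-0.74, adjusted p = 0.135), lean rat 13 (adjusted p = 0.0592), obese rat 1 (0.0503) or obese rat 5 (0.0520). Among muscle libraries with 1% or more of RNAs without poly(A), Lepr ran from 0.454 to 5.62 CPM (median 2.41) in obese and from 0.980 to 4.60 CPM (median 2.81) in lean rats.

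In intestine Lepr was 11.7, 12.6, 13.2, 11.8 and 12.5 CPM in the obese controls and 17.4, 19.6, 17.2, 14.4 and 12.9 CPM in the lean controls. Lean rat 15 lay inside the obese range and the other 4 lean rats above it. The log2 difference of -0.39 ± 0.13 had an unadjusted p of 0.00807 and an adjusted p of 0.242, with 0.0136% of the genes in intestine called. In liver the obese controls had 4.33, 9.74, 4.23, 2.63 and 1.79 CPM and the lean controls 7.67, 7.67, 7.53, 6.38 and 3.27 CPM, which overlapped (-0.40 ± 0.43, adjusted p = 0.564). Adipose Lepr differed by -0.10 ± 0.42.

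Brain is where leptin acts on feeding, and 0 members were called there by edgeR or DESeq2, with 0 at an unadjusted p under 0.05. Lepr was 2.74, 11.0, 7.84, 7.16 and 6.92 CPM in the obese and 5.96, 14.1, 3.68, 5.52 and 5.94 CPM in the lean controls, a difference of -0.13 ± 0.51 (adjusted p = 1). The ranges covered each other. In the 2 obese and 2 lean control libraries with hypothalamic peptides the difference was -0.29 ± 0.49 (adjusted p = 0.870). Median Lepr was 6.95 CPM in all brain libraries with these peptides and 5.94 CPM in those without. Across the 31 brain libraries the genes most like Lepr were Cp (r = 0.941), Bicc1 (0.906), Dab2 (0.898), Il1r1 (0.887) and Lum (0.886). The 7 choroid plexus markers, all detected, summed to 10.0 to 2845 CPM in the obese (median 1238) and 15.1 to 2529 CPM in the lean controls (median 365). In the 15 brain libraries above the median marker sum Lepr had a median of 6.92 CPM and in the 16 others 6.13 CPM, and the part of this tissue in the Lepr values was not tested. Of 8 listed genes of leptin-responsive hypothalamic neurons 5 passed the filter on low counts and 0 were called by edgeR or DESeq2, with 1 at an unadjusted p under 0.05. Among the 5 was Pomc, the precursor of an appetite-lowering peptide (-1.51 ± 0.79, adjusted p = 0.972). In brain 0.325% of the genes were called in this comparison.

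The 6 Lepr transcripts were shared out differently by tissue. Summed over libraries, ENSRNOT00000093574 took 68.6% of the estimated Lepr isoform counts in liver, 42.4% in adipose, 33.6% in pancreas, 29.2% in brain, 27.2% in kidney, 24.4% in muscle and 23.5% in intestine. ENSRNOT00000050597 took 12.8% in liver, 29.2% in adipose, 33.2% in brain, 38.2% in intestine, 43.8% in muscle and 45.5% in kidney. Liver was thus the tissue where the first transcript led by the widest margin. The transcripts share most of their reads, so the shares are estimates, and the files do not say which transcript encodes the signalling form.

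**Figure D3:**
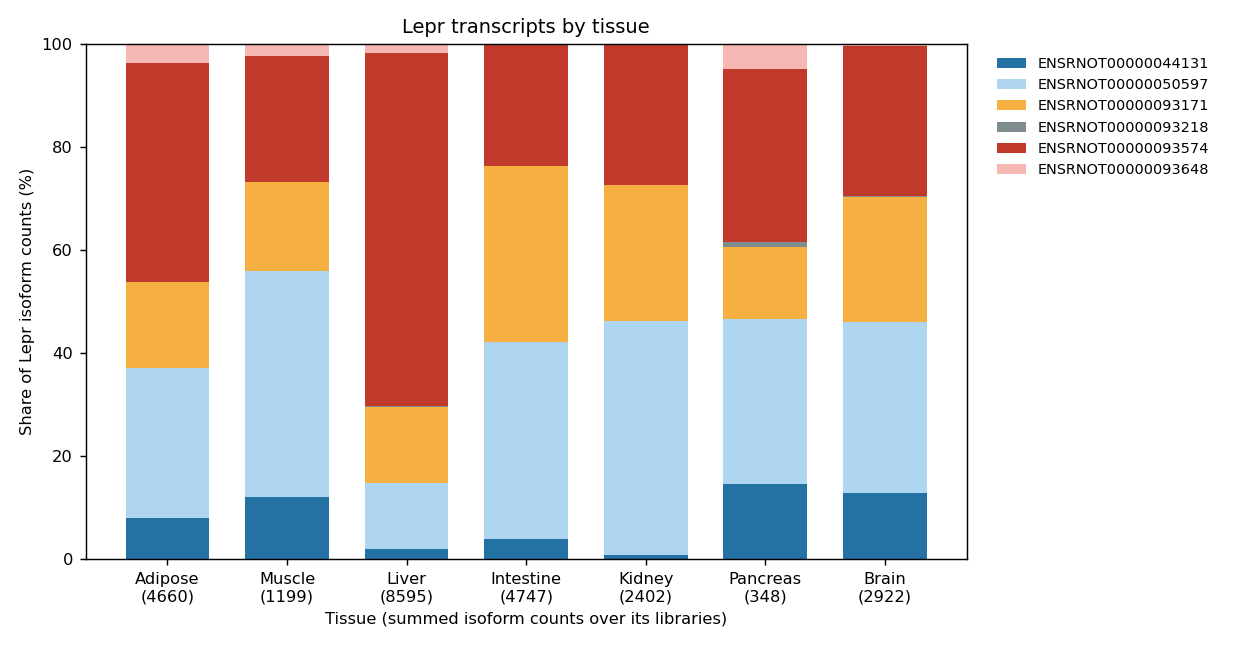
Share of the summed Lepr isoform counts taken by each of the 6 transcripts, by tissue (percent, blood not drawn). ENSRNOT00000093574 takes 68.6% in liver and 23.5 to 42.4% in the other tissues.

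In the 7-week obese livers the shares of sham and pFUS rats did not overlap for these transcripts. Of the Lepr isoform counts of the obese controls (75 to 349 per library), ENSRNOT00000093574 took 59.1, 60.2, 75.7, 84.6 and 69.3%. In the obese pFUS rats (46 to 202 counts) it took 28.3, 0, 31.2, 32.2 and 58.7%. All 5 pFUS livers lay below all 5 controls, the closest pair by 58.7 against 59.1%. ENSRNOT00000050597 showed the opposite order, with 0, 14.6, 0, 0 and 18.7% in the controls and 45.7, 74.5, 42.4, 36.1 and 19.3% in the pFUS rats. In lean livers the groups overlapped, with 52.9, 75.2, 52.3, 15.5 and 0% for ENSRNOT00000093574 in controls and 36.6, 0, 29.5, 29.5 and 15.5% under pFUS. In the 3-day obese livers it took 79.8 to 90.7% in controls, 81.1 to 92.9% under x1 and 53.7 to 82.1% under x10. No test was made on these shares, which rest on few counts and were singled out after their values had been seen.

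Stat3, the signal carrier, was measured in every library. Its median was 152 CPM in intestine (98.5 to 307) and in kidney (90.0 to 389), 128 in adipose (53.4 to 283), 111 in liver (48.4 to 219), 76.3 in brain (61.7 to 110.0), 62.1 in muscle (36.8 to 104), 26.1 in pancreas (8.07 to 38.0) and 7.98 in blood (1.94 to 51.0). In the 7-week obese controls the order ran from kidney (224) over intestine (154), liver (140), adipose (112), brain (87.3) and muscle (75.1), each overlapping the next, to pancreas (29.2) and blood (5.67), which each lay clear of the tissue above. In the 3-day obese controls adipose Stat3 (122 CPM) was above liver (91.2 CPM). The genes most like Stat3 over the 70 group means were Pdcd6ip (r = 0.976) and 4 others down to Rer1 (0.954).

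Stat3 was higher in obese than in lean livers. Obese control rats 1 to 5 had 102, 192, 139, 140 and 127 CPM (140 ± 32.6), and lean control rats 11 to 15 had 69.6, 79.0, 79.9, 65.1 and 64.8 CPM (71.7 ± 7.34). Every obese liver was above every lean one. Stat3 differed by 1.00 ± 0.23 on the log2 scale (adjusted p = 0.00555) and stayed between 0.78 and 1.11 with each library left out (adjusted p at most 0.0227). In liver 13.0% of the genes tested (1632 of 12585) were called. The sequencing depth of these libraries was 21726174 to 43088790 counts in obese and 13752172 to 23512019 in lean rats.

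Markers of other cell types also differed between these livers, in either direction. The 6 macrophage markers summed to 217 to 365 CPM in the obese and 65.6 to 225 CPM in the lean controls, and the 5 neutrophil markers to 3.69 to 8.80 against 0.566 to 1.46 CPM. The lymphocyte markers were lower in the obese livers (0.194 to 0.690 against 0.693 to 2.18 CPM). So were the red-cell markers (195 to 621 against 668 to 4606 CPM). The endothelium markers overlapped, at 96.7 to 163 CPM in the obese and 52.8 to 134 CPM in the lean controls. The hepatocyte markers summed to 154700 to 251330 and 146420 to 152840 CPM. The part of these cells in the Stat3 difference was not tested. Across the 55 liver libraries the genes most like Stat3 were Sirpa (r = 0.774), Ulk1 (0.766) and Gpnmb (0.756), and for the other obese groups Stat3 stood at 82.0 to 219 CPM (24 libraries at 3 days and 4 weeks, median 113). All 10 lean livers, with pFUS or sham, ran from 48.4 to 111 CPM (median 67.4), the 9 DIO-stz livers from 76.1 to 135 CPM (median 115), and the diet-resistant pair stood at 155 and 157 CPM.

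Muscle Stat3 was 77.2, 90.0, 54.1, 92.4 and 61.6 CPM in the obese controls (75.1 ± 17.0) and 59.2, 47.7, 41.6 and 45.6 CPM in the lean controls (48.5 ± 7.54). Lean rat 11 lay inside the obese range and the other lean rats below it. On the log2 scale the difference was 0.77 ± 0.20 (adjusted p = 0.00428). The 5 neutrophil markers summed to 1.87 to 3.24 CPM in these obese and 0 to 0.920 CPM in the lean muscles, with S100a8 and Camp at 0 in the lean, and the macrophage markers to 19.2 to 71.8 and 17.7 to 46.0 CPM. Their part in the difference was not tested. Within the library kind of 1% or more, Stat3 ran from 46.5 to 81.9 CPM (median 62.7) in obese and from 36.8 to 59.2 CPM (median 46.6) in lean muscles. Stat3 did not pass the test in adipose (112 against 104 CPM, 0.37 ± 0.24, adjusted p = 0.750), intestine (154 against 148 CPM, 0.07 ± 0.12), brain (-0.01 ± 0.18) or blood (5.67 against 6.06 CPM), where 2.78% of the genes were called. Without the adipose libraries that held kidney markers or Ucp1, which leaves 2 rats a group, adipose Stat3 was called at 0.72 ± 0.15. In that fit 1191 genes were called higher and 671 lower of 13301 tested, against 0.0147% in the main fit.

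**Figure D4:**
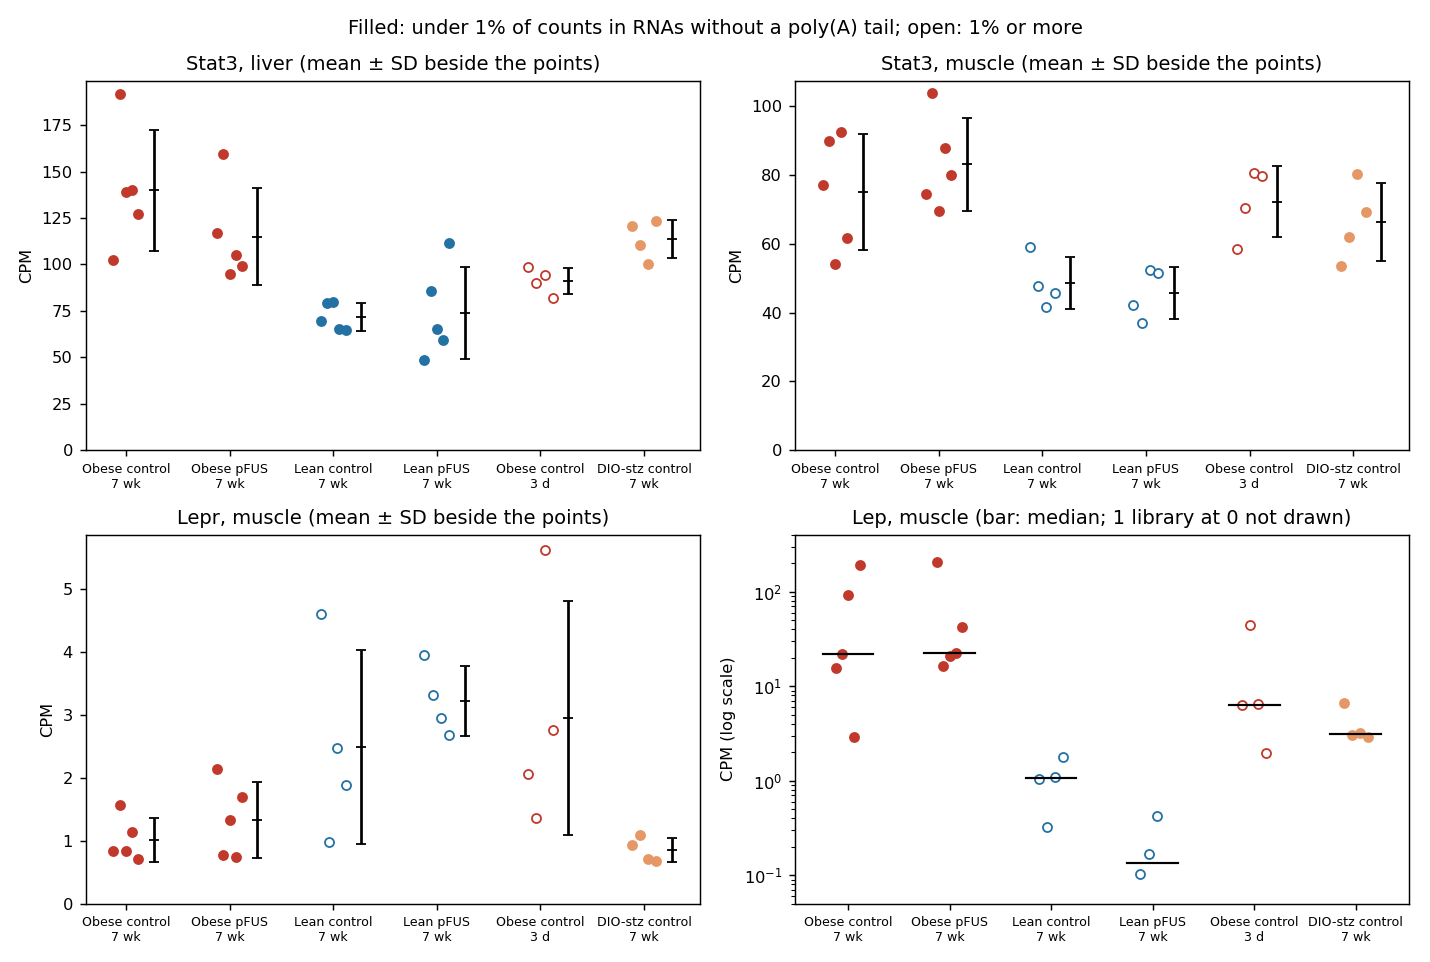
Stat3 in liver and muscle, Lepr in muscle and Lep in muscle for every library of 6 groups (CPM, mean with SD, Lep on a log axis with its median and the 1 library at 0 not drawn). Filled points are libraries with under 1% of counts in RNAs without poly(A) and open points those with 1% or more. Stat3 in the obese control livers (102 to 192 CPM) lies above the lean controls (64.8 to 79.9 CPM), while in muscle the 7-week obese libraries are all filled and the lean ones all open.

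Socs3, the inhibitor and STAT3 target, was scarce. Its median was 2.57 CPM in adipose (0.804 to 14.6), 2.49 in intestine (1.22 to 7.53), 1.95 in liver (0.225 to 12.7), 1.75 in kidney (0.737 to 61.5), 0.886 in blood (0.185 to 8.30), 0.830 in muscle (0.311 to 3.63), 0.653 in brain (0.106 to 1.28) and 0.522 in pancreas (0.107 to 1.30). In every model the tissues overlapped with their neighbours in most places of this order. Over the 70 group means the genes most like Socs3 were Tnfrsf1a (r = 0.813), Myd88 (0.797) and Il4r (0.773), and over the 55 livers Junb (0.648), an immediate early gene, and Cish (0.577), another SOCS family inhibitor.

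Socs3 was called between obese and lean controls in 0 of 6 tissues by edgeR or DESeq2, and 0 had an unadjusted p under 0.05. In liver, where Stat3 was higher, it was 2.26, 5.24, 1.70, 5.03 and 6.45 CPM in the obese and 6.86, 7.00, 4.31, 1.87 and 1.82 CPM in the lean controls (0.01 ± 0.39, adjusted p = 0.988). The ranges covered each other. In muscle it was 0.986 and 0.999 CPM on average (0.12 ± 0.43), in brain 0.954 and 0.538 CPM (0.61 ± 0.49), and in adipose 2.55 and 1.60 CPM (0.96 ± 0.45, adjusted p = 0.626). In all, 4 of the 20 tests of members in this comparison were called, 5 had an unadjusted p under 0.05, and in 2 the groups did not overlap. Stat3 was called in liver, where 13.0% of the genes tested were called. Lep, Lepr and Stat3 were called in muscle, where 51.9% were and where the library kinds were separated. Of all genes, 3676 of 12585 in liver, 7279 of 12577 in muscle and 1990 of 14709 in intestine had an unadjusted p under 0.05. The share of all genes without overlap is not given.

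Genes of the wider pathway were also listed in liver, where 13.0% of all genes were called. At that share most genes of any list would not be called. Of 16 signal carriers of the leptin pathway 3 rose in obese against lean livers and none fell: Stat3, Stat5b (1.03 ± 0.20, adjusted p = 0.00140), a growth hormone signal carrier, and the insulin receptor adaptor Irs2 (1.69 ± 0.50, adjusted p = 0.0278). Their median was 0.30 against -0.04 for all genes. Of 6 genes of the receptor and its partners and of 8 inhibitors, 0 were called by edgeR or DESeq2, and 1 in each list had an unadjusted p under 0.05. Of 19 STAT3 target genes none rose and 3 fell, namely the cyclin Ccnd1 (-1.11), the kinase Pim3 (-1.50) and the protease inhibitor Serpina3n (-0.73). Of 8 gp130 cytokines and receptors Cntfr fell (-1.50). Of 5 regulators of the Lep gene, the nuclear receptor Pparg rose by 1.91 and Cebpa, which encodes a C/EBP factor, fell by 1.34.

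In muscle, against the 51.9% of all genes called, 4 of 6 genes of the receptor group, 10 of 16 carriers, 2 of 8 inhibitors, 8 of 18 STAT3 targets and 5 of 8 gp130 genes were called. Leprot (0.45) and Leprotl1 (0.72), which control how much receptor reaches the cell surface, and the JAK2 adaptor Sh2b2 (1.65) rose while Lepr fell. Of the carriers, Stat3, Akt2 (0.44), Grb2 (0.44), Mapk3 (0.89) and Stat5a (0.73) rose, and those that fell included the insulin receptor adaptor Irs1 (-3.67), Foxo1 (-1.27), Pik3r1 (-1.60) and Pik3ca (-1.19). Of the STAT3 targets 5 rose (Bcl3, Il4r, Lbp, Pim3 and Timp1, by 0.81 to 1.90) and Fos, Hif1a and Saa4 fell. The inhibitors Socs2 and Pias1 fell by 2.44 and 1.29, and of the gp130 genes Il6st, Lifr and Cntf fell by 1.03, 2.31 and 0.86 while Il11ra1 rose. The library kinds are separated in the same way as the groups for each of these genes. In blood the STAT3 target Hp, haptoglobin, rose (1.01, adjusted p = 0.0419).

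Under 7 weeks of pFUS in obese rats no member was called in 26 tests over 8 tissues by edgeR or by DESeq2, 4 had an unadjusted p under 0.05, and 0.0794% of all gene tests were called. The closest to the threshold was intestinal Lepr, with 7.88, 7.01, 8.16, 6.88 and 10.4 CPM under pFUS (8.06 ± 1.40) against 11.7 to 13.2 CPM in controls. All pFUS rats lay below all controls, and groups did not overlap in 1 of the 26 tests. The share of all genes without overlap is not given. In intestine 2642 of 14709 genes had an unadjusted p under 0.05 in this comparison. The log2 difference was -0.35 ± 0.13 (unadjusted p = 0.0157, adjusted p = 0.184), and with the totals scaled by the trimmed mean of M values (TMM) the means were 9.35 and 11.7 CPM. Liver Socs3 was 1.45, 2.08, 1.84, 1.45 and 1.92 CPM under pFUS against 4.14 ± 2.05 CPM in controls (-1.37 ± 0.40, unadjusted p = 0.00280, adjusted p = 0.235). The pFUS livers were closely grouped, and control rat 3 lay among them.

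The other differences with an unadjusted p under 0.05 were in kidney and pancreas. Kidney Socs3 was 5.00, 61.5, 2.24, 7.64 and 1.06 CPM in controls and 1.70 ± 1.24 CPM under pFUS (-2.90 ± 0.91, adjusted p = 0.611), and leaving out 1 library moved it between -3.35 and -1.17. Control rat 2 was far above the other controls, which overlapped the pFUS rats. Pancreatic Lepr was 2.29 CPM under pFUS and 1.38 CPM in controls (0.67 ± 0.30, adjusted p = 0.608). Liver Stat3 was 117, 159, 94.7, 105 and 99.1 CPM under pFUS, overlapping the controls (-0.41 ± 0.22, adjusted p = 0.784). Lep in muscle was 206, 16.5, 20.9, 22.7 and 41.9 CPM under pFUS (-0.15 ± 0.82) and in adipose 3216, 826 and 3418 CPM (0.75 ± 0.78, adjusted p = 1).

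**Figure D5:**
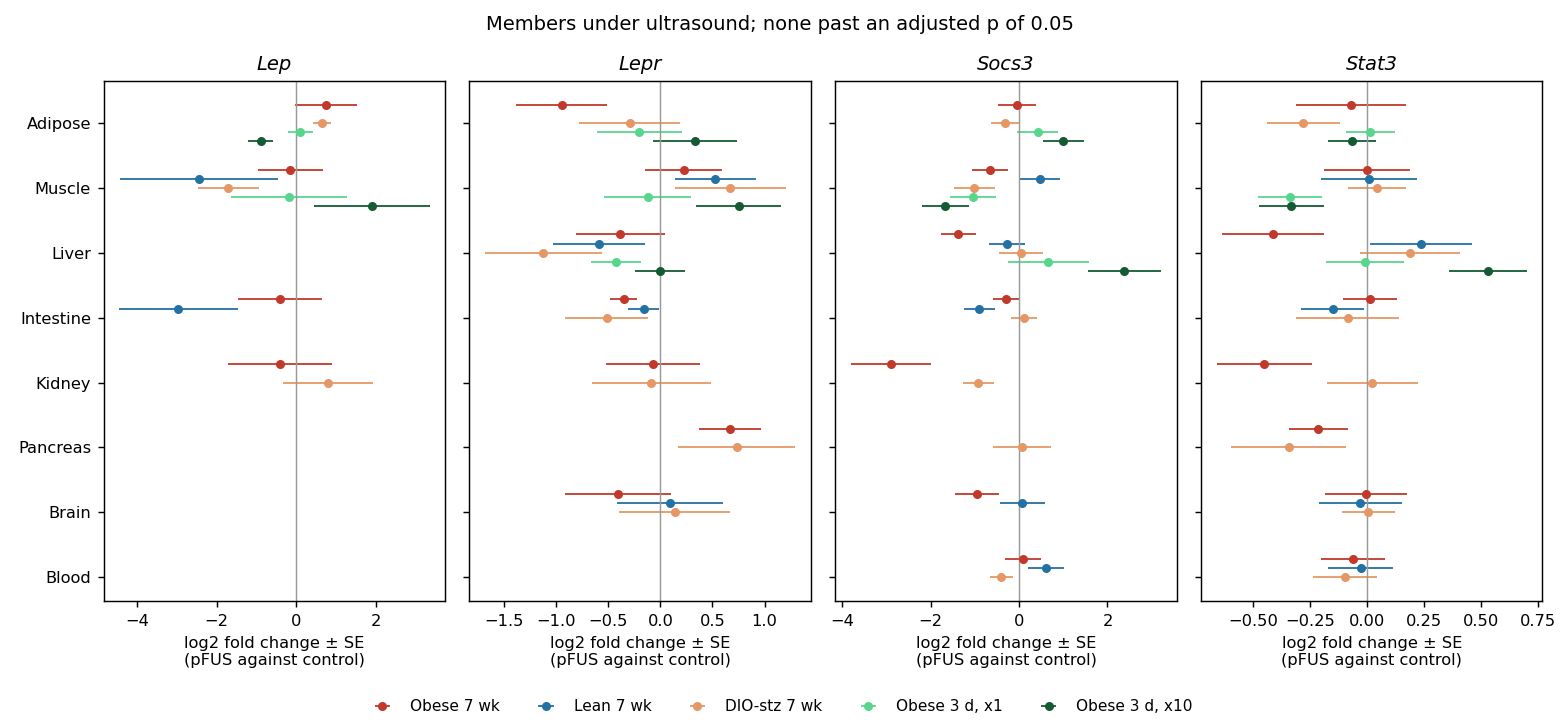
Log2 fold change of each member under pFUS against its control, by tissue, for 5 pFUS comparisons (points, bars of 1 SE on each side). No difference passed the adjusted threshold, the widest bars are those of Lep outside adipose, and kidney Socs3 of obese rats lies at -2.90 ± 0.91.

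In lean rats none of 16 tests was called by edgeR or DESeq2, 1 had an unadjusted p under 0.05, and 0.0125% of all gene tests in 5 tissues were called. That difference was Socs3 in intestine, with 2.17, 1.22 and 1.23 CPM under pFUS and 3.91, 2.85, 2.22, 4.56 and 1.51 CPM in controls (-0.90 ± 0.35, adjusted p = 0.451), which overlapped. The pFUS effect was also compared between obese and lean rats by an interaction term. No member was called in its 16 tests by either tool, none had an unadjusted p under 0.05, and 0.0718% of gene tests were called. The liver terms were -0.65 ± 0.32 for Stat3 (adjusted p = 0.350) and -1.09 ± 0.57 for Socs3 (adjusted p = 0.380). Adipose gave no lean comparison, since 1 lean pFUS library met the Adipoq rule.

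After 3 days at x1 none of 11 tests in obese liver, adipose and muscle was called by edgeR or DESeq2 and 1 had an unadjusted p under 0.05 (muscle Stat3, -0.34 ± 0.14, adjusted p = 0.470), with 0.206% of gene tests called. At x10 none of 11 was called by either tool, 6 had an unadjusted p under 0.05, and 0.841% of gene tests were called. Of all genes, 1275 of 13368 in adipose, 1422 of 11809 in liver and 2586 of 12259 in muscle had an unadjusted p under 0.05. Adipose Lep was 757, 2379, 1766 and 2886 CPM at x10 (1947 ± 916) and 3246, 2982, 2888 and 3812 CPM in controls (3232 ± 415). All x10 rats lay below all controls, the nearest pair by a narrow margin. On the log2 scale the difference was -0.89 ± 0.31 (unadjusted p = 0.0131, adjusted p = 0.503), and the lowest x10 library, rat 37, was the one with Ucp1 at 106 CPM. Muscle Socs3 was 0.581, 0.648, 0.617 and 0.311 CPM at x10 against 0.617, 1.27, 3.63 and 1.43 CPM in controls (-1.66 ± 0.54, adjusted p = 0.108).

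Muscle Stat3 was lower at x10 (58.4 against 72.3 CPM, -0.33 ± 0.14, adjusted p = 0.191) and adipose Socs3 higher (3.82 against 1.74 CPM, 1.00 ± 0.46, adjusted p = 0.520), both without passing the test and with overlap.

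In the 3-day livers Stat3 and Socs3 stood higher at x10, also without passing the test. Socs3 was 12.7, 1.19, 1.62 and 2.08 CPM at x10 and 0.225, 0.579, 1.70 and 0.555 CPM in controls (2.38 ± 0.83, adjusted p = 0.254), and without rat 37 the difference was 0.99. Stat3 was 206, 117, 98.4 and 119 CPM at x10 and 98.5, 89.8, 94.3 and 82.0 CPM in controls (0.53 ± 0.17, adjusted p = 0.179), and 0.25 to 0.65 with each library left out. Rat 37 was the highest for both genes.

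Among the 4-week obese groups, which had no sham control, no member was called by edgeR or DESeq2 in 11 tests of each comparison. Between AM&PM x10 and AM&PM x1, 0.266% of gene tests were called and 2 members had an unadjusted p under 0.05: liver Socs3 (3.30 against 1.65 CPM, 0.98 ± 0.40, adjusted p = 0.223) and liver Stat3 (150 against 108 CPM, 0.48 ± 0.17, adjusted p = 0.173). Between AM&PM x10 and AM x10, 0.404% were called and 1 member had an unadjusted p under 0.05, adipose Socs3 (2.10 against 4.92 CPM, -1.17 ± 0.50, adjusted p = 0.850).

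In DIO-stz rats none of 25 member tests of pFUS was called by edgeR or DESeq2, 2 had an unadjusted p under 0.05, and 0.192% of gene tests were called. Adipose Lep was 3383, 2077 and 3415 CPM under pFUS and 1233, 1206, 1730 and 2113 CPM in controls (0.65 ± 0.23, adjusted p = 0.670). The pFUS rats were all male, and the 2 highest controls were male. Adipose Stat3 was 155, 122 and 166 CPM under pFUS and 225, 217, 187 and 178 CPM in controls, with no overlap (-0.28 ± 0.16 with sex in the fit, adjusted p = 0.851). Kidney Socs3 was 1.44 against 2.62 CPM (-0.92 ± 0.35, adjusted p = 0.394).

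Few genes of the listed pathway were called under pFUS. In obese livers at 7 weeks Irs2 fell from 46.4 to 8.98 CPM (-2.42 ± 0.51, adjusted p = 0.0406), the only called carrier of 16, with 0.302% of all liver genes called. In the interaction term the kinase subunit Pik3r1 was higher in liver (1.79, adjusted p = 0.0459, with 0.358% of genes called). After 3 days Stat5b fell at x1 (-0.72, adjusted p = 0.0313), and Stat5a (-1.05, adjusted p = 0.0378) and Il11ra1 (-0.59, adjusted p = 0.0312) fell at x10, all in liver, where 0.635% of genes were called at x1 and 1.19% at x10. In DIO-stz adipose, where 0.0505% of genes were called, Cish rose (3.08, adjusted p = 0.0252, with sex in the fit). It was 93.2, 133 and 104 CPM in the pFUS rats, all male, 15.2 and 11.4 CPM in the male controls and 43.8 and 53.8 CPM in the female controls, and it was also called by sex. The STAT3 target Il4r fell in DIO-stz pancreas (-1.87, adjusted p = 0.0133, with 0.856% of genes called). The x1 and x10 comparisons at 3 days share their controls, the 4-week comparisons share the AM&PM x10 rats, and the obese 7-week controls enter both the lean and the pFUS comparison.

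Sex was a term of the DIO-stz fits, and males were set against females after the levels had been seen. No member of 25 tests was called by edgeR, 5 had an unadjusted p under 0.05, DESeq2 called 1 (adipose Socs3), and 0.497% of gene tests were called. Liver Lepr was 44.5 and 41.0 CPM in the female and 5.81 and 24.5 CPM in the male controls, 20.7 CPM in the female and 1.18, 5.00, 12.8 and 4.56 CPM in the male pFUS rats. The female diet-resistant livers, which were not in that fit, had 22.4 and 9.98 CPM. Within each treatment of the DIO-stz rats all females, of which pFUS had 1, were above all males. The lower diet-resistant female lay below the highest DIO-stz pFUS male. The male minus female difference in DIO-stz was -1.69 ± 0.57 (unadjusted p = 0.0148, adjusted p = 0.221).

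Adipose members showed sex differences of either sign. Socs3 was 9.37 and 9.86 CPM in the female controls, 3.75 and 2.72 CPM in the male controls and 2.52, 3.19 and 1.93 CPM in the male pFUS rats (-1.46 ± 0.34, adjusted p = 0.115), and the diet-resistant female had 14.6 CPM. Every female stood above every male. Lep differed the other way (0.76 ± 0.25, adjusted p = 0.248). In kidney Socs3 differed by -0.81 and Stat3 by -0.48. Of the listed genes, the liver receptors Lifr (-7.52, adjusted p = 0.000257) and Osmr (-4.63, adjusted p = 0.000393) were lower in males, and the repressor Bcl6 (3.50) and Serpina3n (1.43, adjusted p = 0.0354) were higher, in a tissue where 303 of 12113 genes were called by sex. Bcl6 was also higher in male kidney (2.94, with 0.620% of genes called). In adipose, with 0.642% called, Cish (-1.76, adjusted p = 0.0287) and Il4r (-2.00, adjusted p = 0.00772) were lower in males.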

How the data were processed

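Per the submitters' processing notes, reads were aligned with STAR 2.5.3a, quantified with RSEM and referred to Rnor_6.0. Which annotation release was used was not stated. Per the labels' protocols, a stranded mRNA kit was used except for pancreas and adipose, which had a stranded total RNA kit. The authors deposited RSEM expected counts per gene and per isoform for all libraries, present as whole numbers and used as deposited. They are not normalized. Groups came from the labels. The 4 members and all gene lists were chosen with earlier results of these data known.

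CPM is the count over the library total. For each tissue, genes passing filterByExpr with a minimum count of 10 were fitted with edgeR 4.0.16 (R 4.3.3, TMM factors, robust quasi-likelihood test), obese and lean 7-week groups together, 3-day groups together, 4-week groups together, and DIO-stz with sex as a term. Benjamini-Hochberg adjustment ran over all genes tested in a tissue, and the threshold was an adjusted p of 0.05. Shares of all genes or gene tests called refer to this threshold and are no baseline for counts of unadjusted p values. The share of all genes whose groups did not overlap is not given. Each SE was derived from the fitted difference and its F statistic. The fit was tested on simulated data. DESeq2 1.42.0 was an alternative. Ratios of Lep to Adipoq used log2 of counts with 0.5 added and exact permutation of rats. Likeness was Pearson's r of log2(CPM + 1). Genes named beside the members are those of the lists that passed the threshold, and the 5 most alike per member, and some listed genes are not reported here. Of 477 library pairs within groups, 0 were identical. Tables were made with Python 3.11.15 and pandas 2.3.3. Promoters came from RefSeq (GRCr8), by symbol.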

Additional observations from a re-analysis of the deposited data

Results flagged for a closer look

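Groups of 4 to 10 rats with a mean of at least 1 CPM were searched by Dixon's test at a nominal 5%. In 23 of 168 such member groups a library lay far from the rest of its group. The nominal rate assumes normal values and independent groups. Unlogged CPM were used and tissues of a rat are not independent, so 5% is no baseline here. The high Lep values outside adipose were intestine of lean control rat 14 (21.4 CPM) and obese pFUS rat 10 (16.6 CPM), kidney of obese control rat 5 (30.8 CPM) and muscle of DIO-stz control rat 3 (6.57 CPM), 3-day control rat 42 (44.0 CPM), 3-day x10 rat 37 (219 CPM) and obese pFUS rat 6 (206 CPM).

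Lepr was high in adipose of 4-week AM x10 rat 28 (53.6 CPM, others 10.3 to 15.4), brain of lean control rat 12 (14.1 CPM), and liver of 4-week AM&PM x10 rat 31 (26.1 CPM) and AM x10 rat 25 (19.6 CPM). It was low in adipose of 3-day x1 rat 33 (5.81 CPM) and muscle of 3-day x10 rat 38 (3.52 CPM).

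Socs3 was high in blood of lean pFUS rat 17 (3.81 CPM), intestine of DIO-stz pFUS rat 9 (7.53 CPM), kidney of obese control rat 2 (61.5 CPM), and liver of DIO-stz pFUS rat 8 (7.50 CPM), 3-day x10 rat 37 (12.7 CPM), 4-week AM&PM x10 rat 31 (6.17 CPM) and AM x10 rat 28 (3.69 CPM). Stat3 was high in brain of DIO-stz control rat 5 (89.7 CPM) and obese pFUS rat 9 (110.0 CPM) and in liver of rat 31 (219 CPM).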

How the results depend on the processing

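Of the 4 calls between obese and lean controls, 3 to 4 were made with each library left out and 3 to 5 under the other alternatives. The fifth was adipose Stat3 without the libraries with kidney markers or Ucp1, a fit that called 1191 genes higher and 671 lower of 13301. Lep in muscle stayed between 4.24 and 6.30 and Stat3 in muscle between 0.60 and 0.88 with each library left out. Lepr in muscle missed the threshold in 4 such fits and without libraries that stood apart (-0.91, adjusted p = 0.150, 2 of 5 obese rats left). Adipose Lep reversed from -0.01 to 0.37 with all labelled adipose libraries and to 0.13 without those with kidney markers or Ucp1, and with single libraries left out it ran from -0.50 to 0.49 (0.17 and 0.49 without lean rats 13 and 14, 0.24 and 0.25 without obese rats 4 and 5). At 3 days x1 adipose Lep ran from -0.083 (without rat 35) to 0.26, and between AM&PM x10 and AM x10 from -0.45 to 0.015 (without rat 31). For males against females DESeq2 called 1 member (adipose Socs3, adjusted p = 0.0161), and leaving out libraries gave 0 to 1 (kidney Stat3 without DIO-stz control rat 6, adjusted p = 0.0488). In the 8 pFUS comparisons the count of members stayed at 0 under every alternative run. Between obese and lean livers 57.0% of the called genes were higher in the obese, 50.1% by DESeq2 and 63.8% with the 2 groups alone. TMM-scaled levels moved 14 of 272 group means by more than 1 SD. The causes were not tested. No paired analysis was possible because control and pFUS rats share no replicate numbers. Levels near 1 CPM rest on few counts, which limits Socs3 most and also Lep in lean muscle.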

Other observations

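Liver of rat 31 (4 weeks, AM&PM x10), highest of its group of 4 for Stat3, Socs3 and Lepr, was also highest for 14 of 19 STAT3 target genes and lowest for 2. The acute-phase gene Lbp was at 247 CPM against 108 to 112 in the other 3 rats, Bcl3 at 14.3 against 2.34 to 5.78, and Osmr at 10.8 against 1.79 to 3.70. Liver of rat 37 (3 days, x10) was highest for 10 of 19, with Lbp at 133 against 70.9 to 86.3 CPM and Osmr at 8.66 against 1.81 to 3.63 CPM. These livers were singled out after their Stat3 and Socs3 values had been seen.

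Muscle of rat 22 (4 weeks, AM&PM x1) held 82 Lep counts beside 5 of Adipoq, the highest ratio of any muscle in its library kind (log2 3.91). Of the other fat-cell markers, Cfd (14.8 CPM), Retn (2.27 CPM), Thrsp (10.6 CPM), Plin4 (465 CPM) and Gpd1 (710.3 CPM) were also highest of the 4 rats of its group there, Plin1 and Cidec were within the range of the others, and Fabp4 (51.2 against 69.6 to 83.8 CPM) and Lipe (15.6 against 29.7 to 38.6 CPM) were lowest.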
